A study of Mus musculus with 8 samples.

Results

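Genes for enzymes and a chaperone that fold, hydroxylate and cross-link collagen were examined in the colon of mice with acute graft-versus-host disease, an attack of grafted T cells on the host's organs. The set held 10 genes chosen by name: the lysyl oxidases Lox, Loxl1, Loxl2 and Loxl3, the lysyl hydroxylases Plod1, Plod2 and Plod3, the prolyl 4-hydroxylase subunits P4ha1 and P4ha2, and the chaperone gene Serpinh1. Where a gene has several probe sets, the one highest on average in the 8 arrays is used. Of the 10 genes, 8 were measured, among 19505 genes tested in all. Loxl2 and Plod3 were matched to no probe set and are not analysed here. The gene table gives Loxl2 as an older name of Loxl3, and the probe set used for Loxl3 carries the Loxl3 gene identifier 16950. All 8 measured genes had a single probe set.

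All mice were wild-type BALB/c recipients that had received lethal irradiation and then bone marrow and T cells of C57BL/6 donors. The hBD-2 group (4 mice) was given hBD-2, at 1.2 mg/kg by mouth, over days 0 to 7 after transplantation, and the PBS group (4 mice) was given PBS the same way. hBD-2 stands for human beta-defensin 2, which epithelia secrete and which kills bacteria. Whole colon was taken on day 7 and hybridised to 1 array per mouse. Both groups had the disease, and mice without transplantation are not analysed here. The age and sex of the mice are not given in the sources used here.

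Collagen chains are hydroxylated on prolines and lysines in the endoplasmic reticulum, where hydroxyproline makes the triple helix stable and the chaperone HSP47, the product of Serpinh1, binds the folded helix. After secretion, lysyl oxidases, which depend on copper, oxidise lysines and hydroxylysines so that neighbouring collagen or elastin molecules become covalently joined. In the gut these proteins come mostly from fibroblasts and smooth muscle of the wall, and the number and type of cross-links set the stiffness of the tissue.

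Values are log2 expression after RMA, and differences are log2 differences, hBD-2 minus PBS, tested with limma across all genes (Benjamini-Hochberg adjustment, threshold 0.05). The array medians lay between 6.77 and 6.82. Replicates 1 and 3 of the hBD-2 group lay far from every other array on the first principal component, at 25.2 and 25.4, against -8.23 and -7.60 for replicates 2 and 4 of that group and -14.9 to -2.45 for PBS. Both were also high in the homeobox gene Hoxb13 of the posterior body axis (9.06 and 9.32, against 5.11 and 5.22 for replicates 2 and 4, and 4.73 to 7.22 for PBS), and they are called the Hoxb13-high pair. Values without this pair are given beside many of the results, and a result without one is not thereby unchanged. Of 8 measured markers of colon tissue, all lay above the median of all genes, and the chloride exchanger gene Slc26a3 was at a difference of 0.33, or 0.18 without the pair. Of 9 posterior colon genes, Hoxd12 was at 0.36, and Hoxd13 was at 0.83, which turned to -0.085 without the pair. In whole tissue, fewer cells of a type and less RNA per cell cannot be told apart.

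All 8 measured genes had a difference below 0, as had 46.5% of all genes tested. None passed an adjusted p of 0.05, where 0.0410% of genes passed as lower and 0 genes passed as higher. At an unadjusted p under 0.05 in limma, 4 of the 8 were lower and 0 were higher, against 5.98% and 5.85% of all genes. The 4 were Serpinh1, Lox, Loxl1 and Plod1, and the unadjusted p of Plod1 was 0.0499. The groups did not overlap in Serpinh1 and Lox, with hBD-2 below PBS, which was the case for 3.60% of all genes, while 2.80% had hBD-2 above PBS without overlap and 0 of the 8 genes did. Without the Hoxb13-high pair, 2 of the 8 (Serpinh1 and Lox) were lower at an unadjusted p under 0.05, against 5.48% of all genes, and the groups did not overlap in these 2, as in 9.97% of all genes with hBD-2 lower. The median difference over the 8 genes was -0.24, against 0.012 over all genes, and -0.12 against 0.020 without the Hoxb13-high pair. The genes were proposed with results of these data known, so this count and median are a description.

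**Figure D1:**
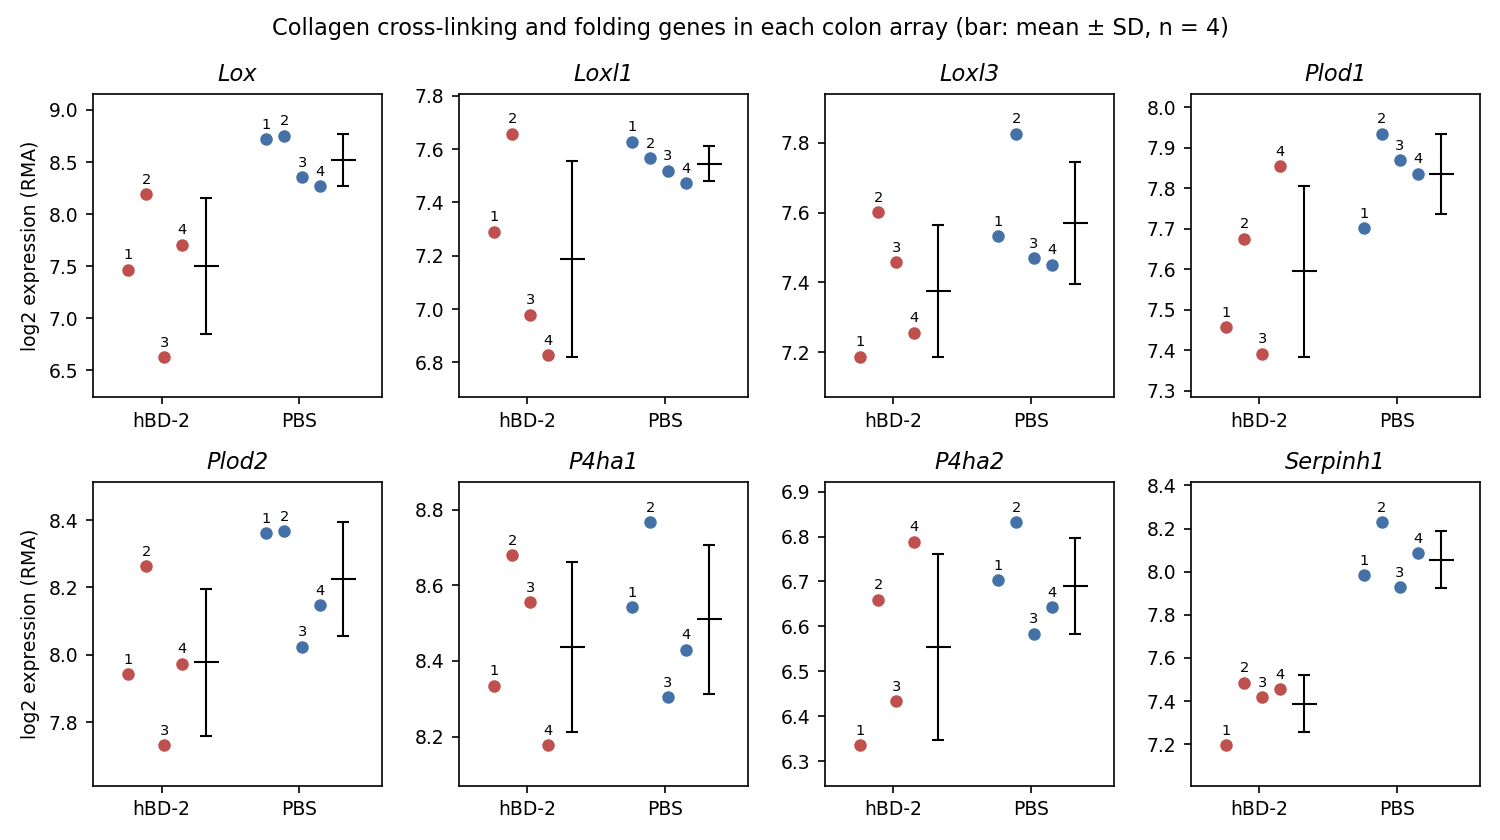
Log2 expression (vertical axis, a separate scale for each gene) of the 8 measured genes in each array, with hBD-2 in red on the left and PBS in blue on the right, numbered by replicate; bars give the mean ± SD of 4 arrays. Serpinh1 separates the groups by a gap of 0.44, Lox by a gap of 0.077, and the other 6 genes overlap.

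Serpinh1, the collagen-specific chaperone gene, had the clearest separation. It stood at 7.19, 7.48, 7.42 and 7.46 in hBD-2 arrays 1 to 4, against 7.98, 8.23, 7.93 and 8.08 in PBS arrays 1 to 4. Every hBD-2 array lay below every PBS array, and the gap between the groups (0.44) exceeded the range within the hBD-2 arrays (0.29) and within the PBS arrays (0.30). Serpinh1 averaged 7.39 ± 0.13 in hBD-2 mice and 8.06 ± 0.13 in PBS mice (SD, n = 4 each). The difference was -0.67 (SE 0.094, 95% interval -0.88 to -0.46), that is 0.629 of the PBS level. Its limma adjusted p was 0.0535, just outside the threshold, and it ranked 11 of 19505 genes by p-value. The difference stayed between -0.71 and -0.60 with any single array left out, and was -0.59 (SE 0.11) without the Hoxb13-high pair. In limma, Serpinh1 passed when the prior was robust and followed intensity (adjusted p = 0.00715), when the dimmest 25% or 50% of probe sets were removed (adjusted p = 0.0448 and 0.0256) and with array weights (adjusted p = 0.0351). Over all alternatives its adjusted p ran from 0.00715 to 0.410.

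The windows upstream of Serpinh1 and P4ha1 are shown because these genes had the lowest and the highest p-value of the set. Both come from RefSeq on GRCm38.p6, from 250 bases before to 50 bases after the gene start, and 5 of the 10 genes have such a window there (Plod1, Plod3, Serpinh1, P4ha1 and P4ha2). Capitals mark, on either strand, ACGTG and GCGTG (cores of the hypoxia response element), GAANNTTC (a unit of the heat shock element, the same on both strands), GGGCGG (the GC box) and CCAAT. A match on the other strand is printed as its reverse complement, such as CACGT for ACGTG. Serpinh1 lies on the minus strand at chr7:99353190-99353489 and P4ha1 on the plus strand at chr10:59323046-59323345.
Serpinh1: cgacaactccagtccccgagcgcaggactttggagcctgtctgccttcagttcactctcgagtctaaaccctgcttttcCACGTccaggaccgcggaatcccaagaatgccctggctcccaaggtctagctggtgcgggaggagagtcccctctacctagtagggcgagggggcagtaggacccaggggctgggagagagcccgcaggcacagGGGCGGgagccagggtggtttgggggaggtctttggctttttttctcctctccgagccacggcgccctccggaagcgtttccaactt
P4ha1: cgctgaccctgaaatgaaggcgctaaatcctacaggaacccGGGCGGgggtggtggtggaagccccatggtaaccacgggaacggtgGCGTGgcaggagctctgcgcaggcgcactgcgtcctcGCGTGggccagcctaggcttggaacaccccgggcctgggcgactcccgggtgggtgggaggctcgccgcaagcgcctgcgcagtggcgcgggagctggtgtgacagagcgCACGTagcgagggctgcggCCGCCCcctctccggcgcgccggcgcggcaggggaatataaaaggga
The Serpinh1 window holds 1 ACGTG, at position 80, and 1 GGGCGG. The P4ha1 window holds 1 ACGTG, 2 GCGTG and 2 GGGCGG. Of 32851 promoter windows, 43.8% hold ACGTG or GCGTG and 35.7% hold GGGCGG, so these letters are common. Neither window holds GAANNTTC, found in 7.86% of windows, or CCAAT, found in 37.4%. GC content was 62.3% for Serpinh1 and 70.3% for P4ha1, against a median of 52.7% over all windows. The matches are a description of the sequence and do not show that a factor binds there.

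Lox, the founding lysyl oxidase, had the largest difference of the set and the widest spread. It stood at 7.47, 8.19, 6.63 and 7.71 in hBD-2 arrays 1 to 4, against 8.72, 8.75, 8.35 and 8.27 in PBS arrays 1 to 4. The groups did not overlap, but the gap between the highest hBD-2 array (hBD-2 2) and the lowest PBS array (PBS 4) was 0.077, while the hBD-2 arrays spanned 1.56. Lox averaged 7.50 ± 0.65 in hBD-2 mice and 8.52 ± 0.25 in PBS mice (SD, n = 4 each). The difference was -1.02 (SE 0.28, 95% interval -1.64 to -0.41), or 0.492 of the PBS level, and it did not pass (limma adjusted p = 0.207, lower in 4 of 4 hBD-2 arrays than in any PBS array). Only 6 genes of 19505 had a lower difference. Without the Hoxb13-high pair it was -0.57 (SE 0.18), and with the mean of the posterior colon genes as a covariate it was -0.62.

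Loxl1, a lysyl oxidase that acts on elastin, stood at 7.29, 7.66, 6.98 and 6.83 in hBD-2 arrays 1 to 4, against 7.63, 7.57, 7.52 and 7.47 in PBS arrays 1 to 4. Of the 4 hBD-2 arrays, 3 were below all PBS arrays and hBD-2 2 was above them all. The SD was 0.37 in hBD-2 mice and 0.067 in PBS mice. The difference was -0.36 (SE 0.16, limma adjusted p = 0.410), and -0.24 without hBD-2 4. Loxl3, another lysyl oxidase, ran from 7.19 to 7.60 in hBD-2 arrays and from 7.45 to 7.83 in PBS arrays, with a difference of -0.19 (95% interval -0.45 to 0.064, limma adjusted p = 0.538), or -0.11 without PBS 2. The 3 measured lysyl oxidases thus had differences from -1.02 to -0.19, and whether they differ from each other was not tested.

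Of the lysyl hydroxylases, Plod1 acts mainly on lysines of the triple helix and Plod2 on those of the telopeptides, the ends where cross-links start. Plod1 stood at 7.46, 7.68, 7.39 and 7.85 in hBD-2 arrays 1 to 4, against 7.70, 7.94, 7.87 and 7.84 in PBS arrays 1 to 4. Its lowest values were those of the Hoxb13-high pair, and hBD-2 4 lay within the PBS range. The difference was -0.24 (SE 0.11, limma adjusted p = 0.422), and -0.071 without the Hoxb13-high pair. Plod2 stood at 7.94, 8.26, 7.73 and 7.97 in hBD-2 arrays 1 to 4, against 8.36, 8.37, 8.02 and 8.15 in PBS arrays 1 to 4. The groups overlapped through hBD-2 2, and the difference was -0.25 (95% interval -0.52 to 0.024, limma adjusted p = 0.462), or -0.11 without the Hoxb13-high pair.

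P4ha1 and P4ha2 encode the catalytic subunits of collagen prolyl 4-hydroxylase. P4ha1 ran from 8.18 to 8.68 in hBD-2 arrays and from 8.30 to 8.77 in PBS arrays. These ranges overlap, with only hBD-2 4 below every PBS array. Its difference was -0.074 (95% interval -0.36 to 0.22, limma adjusted p = 0.855), and it turned to 0.013 without hBD-2 4 and to 0.012 without PBS 2. P4ha2 ran from 6.34 to 6.79 in hBD-2 arrays and from 6.58 to 6.83 in PBS arrays, with the lowest values in the Hoxb13-high pair. The difference was -0.14 (95% interval -0.38 to 0.10, limma adjusted p = 0.645), 0.033 without that pair and -0.063 without hBD-2 1. P4hb, the gene of the partner subunit in the same enzyme, was at 0.018 (SE 0.073, limma adjusted p = 0.943), and at 0.064 without that pair, 0.049 without hBD-2 1 and -0.020 without hBD-2 4. For these hydroxylase subunits a difference as large as that of Serpinh1 lies outside the 95% intervals.

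**Figure D2:**
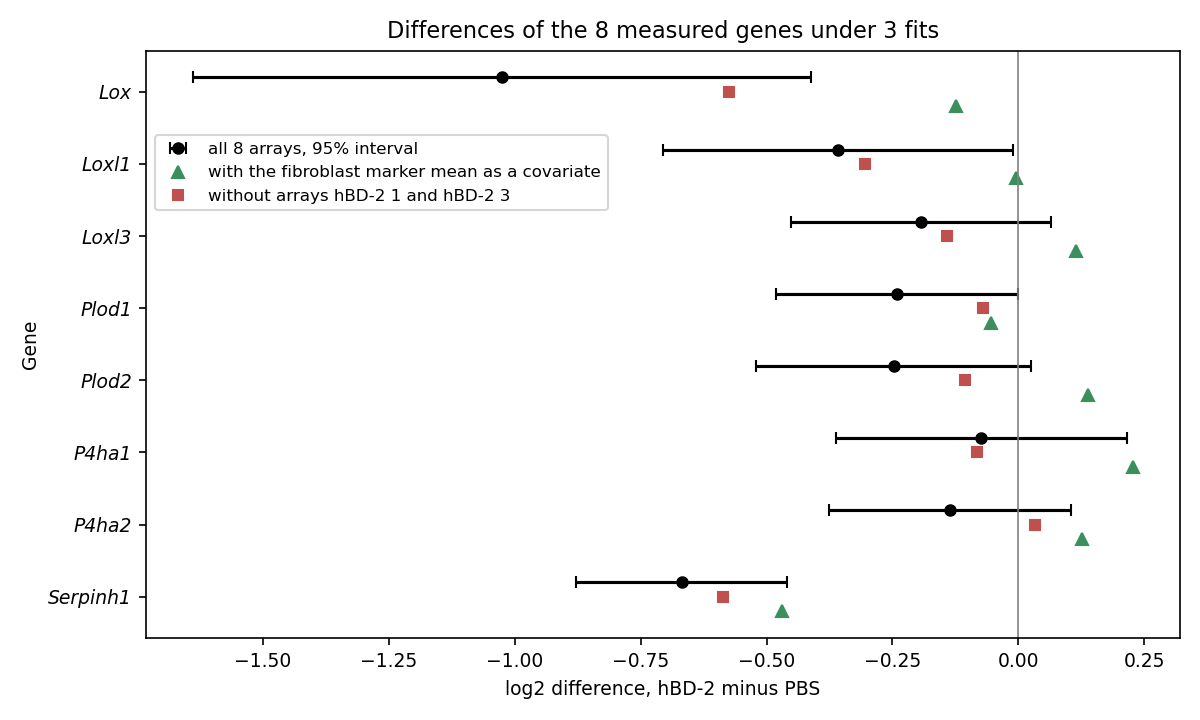
Log2 differences, hBD-2 minus PBS (horizontal axis), for the 8 measured genes, with all 8 arrays (black circles, 95% interval), without the Hoxb13-high pair (red squares) and with the fibroblast marker mean as a covariate (green triangles). Serpinh1 stands at -0.67, -0.59 and -0.47, and Lox at -1.02, -0.57 and -0.12. With the covariate the SE is 0.14 for Serpinh1 and 0.28 for Lox. Group and covariate can be told apart only in part, and whether these genes differ from each other was not tested.

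Within each group, 1 array held the highest value of most of the genes. Of the 8 genes, 6 were highest among hBD-2 arrays in hBD-2 2 and 2 in hBD-2 4, whereas 7 were highest among PBS arrays in PBS 2 and 1 in PBS 1. The lowest values were spread over the arrays, in hBD-2 1, 3 and 4 for 3, 3 and 2 genes and in PBS 1, 3 and 4 for 1, 4 and 3 genes. The array hBD-2 1 lay below all PBS arrays in 7 genes, hBD-2 3 and hBD-2 4 in 6 each, and hBD-2 2 in 3. The mean of 13 fibroblast markers, none of them in the set, was likewise highest in hBD-2 2 and PBS 2 within their groups. Taken relative to the mean of each gene, it stood at -0.26, 0.077, -0.26 and -0.14 in hBD-2 arrays 1 to 4, against 0.16, 0.27, 0.063 and 0.081 in PBS arrays 1 to 4. Of these 13 markers 0 passed. At an unadjusted p under 0.05, 7 were lower and 1 higher, against 5.98% and 5.85% of all genes. The intermediate filament gene Vim was at -0.54 and the collagen VI chain gene Col6a2 at -0.53. Without the Hoxb13-high pair, 4 were lower, against 5.48% of all genes, and 1 higher.

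With the fibroblast marker mean as a covariate, Lox stood at -0.12 (SE 0.28), Loxl1 at -0.0049 (SE 0.22) and Plod1 at -0.055 (SE 0.17). Loxl3, Plod2, P4ha1 and P4ha2 turned to values above 0, from 0.11 to 0.23, each smaller than 1.5 times its SE. Serpinh1 stood at -0.47 (SE 0.14, limma adjusted p = 0.410). The covariate itself averaged -0.14 ± 0.16 in hBD-2 mice and 0.14 ± 0.096 in PBS mice (SD, n = 4 each), so group and covariate can be told apart only in part. The array hBD-2 2 had a fibroblast mean of 0.077, between those of PBS 3 (0.063) and PBS 4 (0.081), a set of arrays singled out after the values were seen. Serpinh1 was at 7.48 in hBD-2 2, against 7.93 in PBS 3 and 8.08 in PBS 4. Lox was at 8.19 in hBD-2 2, against 8.35 and 8.27 in the same PBS arrays. P4ha1 was at 8.68 in hBD-2 2, against 8.30 and 8.43. Of the 8 genes, Serpinh1, Lox and Plod1 were lower in hBD-2 2 than in both of these PBS arrays. For each of these genes the order was fixed beforehand, since hBD-2 2 lay below every PBS array, Plod1 included. The order therefore says nothing on fibroblast content.

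**Figure D3:**
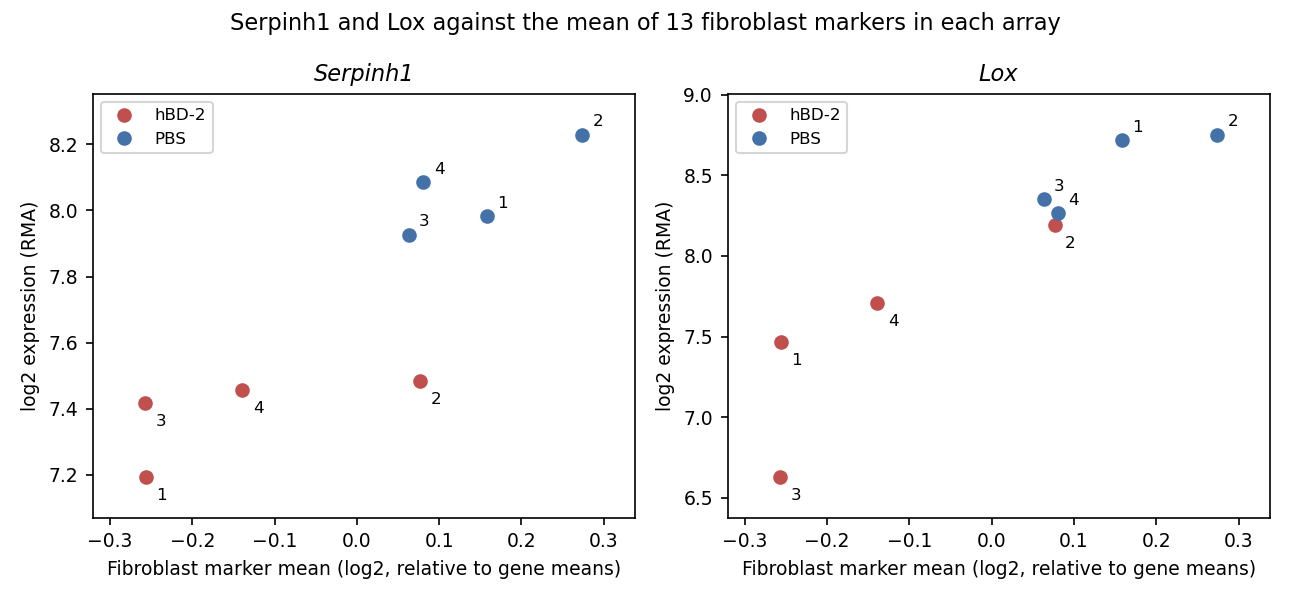
Log2 expression of Serpinh1 (left) and Lox (right) against the mean of 13 fibroblast markers relative to each gene's mean (horizontal axis), 1 point per array numbered by replicate, hBD-2 in red and PBS in blue. At a fibroblast mean of 0.077 the array hBD-2 2 has 7.48 for Serpinh1, against 7.93 in PBS 3 and 8.08 in PBS 4. For Lox it has 8.19, against 8.35 and 8.27. In both genes all hBD-2 arrays lie below every PBS array, so this order holds whatever the fibroblast mean.

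The marker lists of other cell types are given beside these values, and their part in the results above was not tested. The mean of 10 macrophage markers lay between -0.39 and -0.11 in hBD-2 arrays and between 0.12 and 0.40 in PBS arrays. At an unadjusted p under 0.05, 8 were lower, where 5.98% of all genes were lower and 5.85% higher. Without the Hoxb13-high pair, 6 were lower, against 5.48% of all genes. With all arrays 1 marker, the actin-binding protein gene Aif1 at -0.96, passed the adjusted threshold. Endothelial markers lay between -0.28 and 0.053 in hBD-2 arrays and between 0.054 and 0.17 in PBS arrays. Of 10 measured, 5 were lower at an unadjusted p under 0.05, or 4 without the Hoxb13-high pair, and 0 passed the adjusted threshold. The cadherin gene Cdh5 was at -0.48, or -0.42 without that pair. The TGF-beta co-receptor gene Eng was at -0.57, or -0.30 without that pair. Smooth muscle markers lay between -0.46 and 0.098 in hBD-2 arrays, lowest in hBD-2 3, and between -0.048 and 0.21 in PBS arrays (10 measured, 1 lower), with the myosin light chain kinase gene Mylk at -0.41, or -0.22 without that pair and -0.26 without hBD-2 3. Epithelial markers had a median difference of 0.026 with 0 of 10 past an unadjusted p under 0.05. The lowest p-values among them were those of the keratin gene Krt18 at -0.16, or -0.034 without that pair, and the microvillus gene Vil1 at 0.11. Background cannot be read from these values, so no marker can be called absent.

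The substrates of these enzymes were taken from a list of 12 fibrillar collagen and elastin genes. Their differences ran from -0.52 to 0.30, with 9 of the 12 below 0. Of these genes, 7 were lower and 0 higher at an unadjusted p under 0.05, against 5.98% and 5.85% of all genes. The median difference was -0.28, and 0 genes passed the adjusted threshold. Without the Hoxb13-high pair, 5 were lower, against 5.48% of all genes, and 2 higher. Col3a1, the chain of type III collagen, stood at 10.06, 10.45, 10.19 and 10.15 in hBD-2 arrays 1 to 4, against 10.75, 10.66, 10.74 and 10.79 in PBS arrays 1 to 4. Its groups did not overlap, and the difference was -0.52 (SE 0.091, limma adjusted p = 0.0782). Col5a2, a chain of type V collagen that regulates fibril width, was at -0.51 (SE 0.11, limma adjusted p = 0.133), and at -0.35 without the Hoxb13-high pair.

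Of 28 other procollagen processing genes, 7 were lower and 1 higher at an unadjusted p under 0.05, against 5.98% and 5.85% of all genes. The median difference was -0.048, and 0 genes passed the adjusted threshold. Without the Hoxb13-high pair, 5 were lower, against 5.48% of all genes, and 0 higher. P3h2, a collagen prolyl 3-hydroxylase gene, was at -0.70 (SE 0.18), and at -0.49 without the Hoxb13-high pair. Pcolce, whose product enhances cleavage of the procollagen C-propeptide, was at -0.50 (SE 0.12). Fkbp7, a peptidyl-prolyl isomerase gene of the endoplasmic reticulum, was at -0.49 (SE 0.12), and Rcn3, a calcium-binding protein gene of the secretory pathway, at -0.35 (SE 0.095). These 4 genes were named because they had the lowest p-values of the 28. In all 4 every hBD-2 array lay below every PBS array, and limma adjusted p ran from 0.156 to 0.207. The gap between the groups was 0.0023 for Pcolce, 0.035 for Rcn3, 0.038 for Fkbp7 and 0.19 for P3h2. Of the 28 genes, 5 had hBD-2 below PBS without overlap and 1 had it above, against 3.60% and 2.80% of all genes.

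General chaperones of the endoplasmic reticulum had small differences, mostly below 0. Their 13 measured genes had differences from -0.23 to 0.022 with a median of -0.072, and 1 was lower at an unadjusted p under 0.05, the oxidase gene Ero1b at -0.23 (SE 0.094, limma adjusted p = 0.370). The next by p-value was the co-chaperone gene Dnajb9 at -0.16 (SE 0.10, -0.29 without the Hoxb13-high pair and -0.087 without hBD-2 4). Without that pair, 2 of the 13 were lower, against 5.48% of all genes. The Serpinh1 difference of -0.67 lies below all 13, while those of Loxl3, P4ha1 and P4ha2 lie within their range.

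Genes that supply or regulate the enzymes varied in direction. The 6 copper and ascorbate transport genes, whose products bring in cofactors, had a median difference of -0.0032 and 0 past an unadjusted p under 0.05, with the copper chaperone gene Atox1 at 0.065 and the copper importer gene Slc31a1 at 0.091, which turned to -0.13 without the Hoxb13-high pair and to -0.011 without hBD-2 3. Of 15 targets of hypoxia-inducible factors, which also act on P4ha1, P4ha2, Plod2 and Lox, 1 was lower and 3 higher at an unadjusted p under 0.05. At this threshold 5.98% of all genes were lower and 5.85% higher. The median of the 15 was 0.049, and 2 were lower and 1 higher without the Hoxb13-high pair. The glycolytic regulator Pfkfb3 was at -0.50 (SE 0.14), and at -0.66 without the Hoxb13-high pair. The kinase Pdk1 was at 0.55 (SE 0.16), and at 0.29 without that pair, and neither passed the adjusted threshold. Of 13 TGF-beta pathway genes, 6 were lower and 0 higher, or 4 and 0 without the Hoxb13-high pair. The ligand Tgfb1 was at -0.35 (SE 0.082, limma adjusted p = 0.156). The receptor Tgfbr2 was at -0.41 (SE 0.11, limma adjusted p = 0.190), and at -0.27 without that pair. Of 8 matrix proteins that bind collagen or lysyl oxidases, 2 were lower, or 1 without the Hoxb13-high pair. Periostin (Postn) was at -0.53 (SE 0.10, limma adjusted p = 0.0976), and at -0.64 without that pair. Fibulin-5 (Fbln5) was at -0.38 (SE 0.15), and at -0.17 without that pair.

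**Figure D4:**
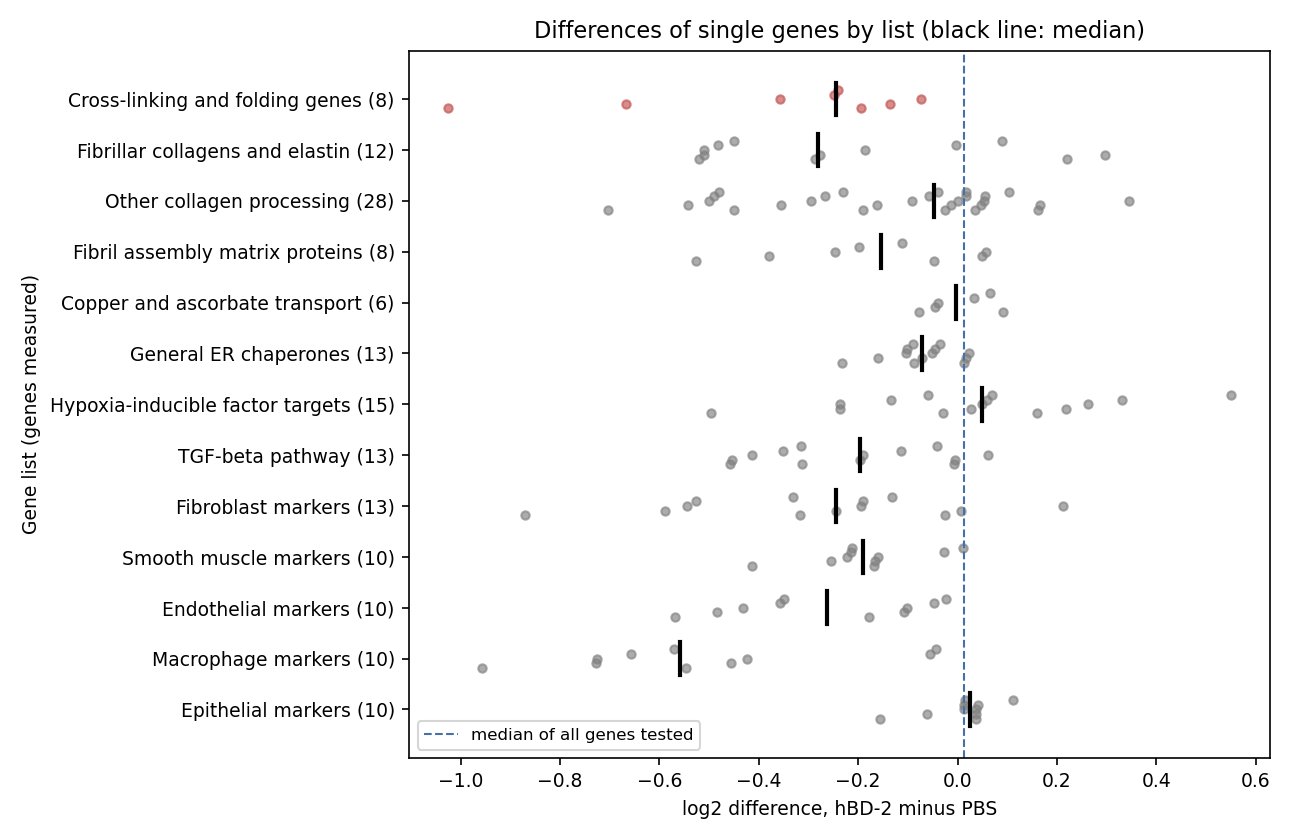
Log2 differences, hBD-2 minus PBS (horizontal axis), of single genes by list (vertical axis, number measured in brackets), with the collagen cross-linking and folding genes in red, other lists in grey, list medians as black lines and the median of all genes as a dashed line. The 8 genes in red lie between -1.02 and -0.074, and general chaperones of the endoplasmic reticulum lie between -0.23 and 0.022.

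The genes whose values ran most like 4 of the set were sought by Pearson's r over the 8 arrays, which share the group difference and the 2 arrays that stand apart. For Lox these were Cd59a (r = 0.987), Btc (r = 0.986) and Bicc1 (r = 0.986). For Serpinh1 they were Cep170 (r = 0.981), Ms4a4c (r = 0.976) and Fip1l1 (r = 0.974). Plod2 was closest to Mia2 (r = 0.980), Tgfbr3 (r = 0.970) and Meis2 (r = 0.965), and P4ha1 to Tspan6 (r = 0.965), Txnl4a (r = 0.955) and Kri1 (r = 0.940).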

How the data were processed

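RNA of whole colon from 8 mice was measured on Affymetrix arrays. The deposited table holds log2 values for 22203 probe sets, made by the authors with oligo and RMA (background correction, quantile normalization, probe set summary), per the submitters' processing notes, so an overall shift between mice would not be visible. For the array design, no genome build is given in the sources used here. Groups came from the sample titles. Of the probe sets, 19572 had 1 gene in the platform annotation, 0 had several and 2631 had none. Keeping the probe set with the highest mean left 19505 genes. All differences are hBD-2 minus PBS from limma 3.58.1 (lmFit, eBayes; R 4.3.3), two-sided, with Benjamini-Hochberg adjustment, no filter on dim probe sets and no minimum fold. The pipeline was tested on simulated arrays with independent noise for each gene. These do not copy the Hoxb13-high pair, so the test does not cover its effect on the fit. The labels do not say which mice shared a cage or a day, and precision is limited by having 4 arrays per group.

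The genes and lists were chosen with earlier results of these data known. All members were named, with the 4 lowest p-values among other collagen processing genes, 2 in every other list (and Hoxb13), and for 4 members the 3 genes with the highest correlation. The main fit did not pair arrays by replicate number. Deviations of same-numbered arrays from their group means correlated at -0.15, 0.14, 0.24 and 0.045, which cannot show whether these mice were paired. Alternatives are described in the closing section.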

Additional observations from a re-analysis of the deposited data

Results flagged for a closer look

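Of 102 groups of 4 arrays examined for the genes named, 4 held an array far from the other 3, where chance gives about 1 in 20, and 0 of the 16 groups of the collagen cross-linking and folding genes did. Cdx1, a transcription factor gene of the intestine, was at 9.96 in hBD-2 3, against 9.73 to 9.75 in the other hBD-2 arrays. Lmod1, a smooth muscle gene, was at 7.73 in hBD-2 3, against 8.10 to 8.16 in the other hBD-2 arrays. The macrophage mannose receptor gene Mrc1 was at 9.67 in hBD-2 2, against 9.27 to 9.33 in the other hBD-2 arrays. Fip1l1, one of the genes closest to Serpinh1, was at 8.72 in PBS 3, against 8.79 to 8.81 in the other PBS arrays.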

How the results depend on the processing

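None of the alternatives changed the direction of Lox, Loxl1, Plod1 or Serpinh1. The direction turned in 4 genes that did not pass: P4ha1 (0.013 without hBD-2 4 and 0.012 without PBS 2, in a range of -0.15 to 0.013 with single arrays left out), P4ha2 (0.033 without the Hoxb13-high pair, 0.037 with the posterior colon covariate), and, with the fibroblast covariate, Loxl3 (0.11), Plod2 (0.14), P4ha1 (0.23), P4ha2 (0.13) and so the median of the 8 genes (0.055). The cause was not tested. With single arrays left out, the median stayed between -0.31 and -0.20, the members called numbered 0, and the genes called among all tested 0 to 11. Members lower at an unadjusted p under 0.05 numbered 2 to 5, and those whose groups did not overlap 2 to 4 (4 without hBD-2 2). The shares over all genes in these fits are not given, so these counts are not a result on the members. Fewer arrays overlap less often: hBD-2 lay below PBS without overlap in 3.60% of all genes, and in 9.97% without the Hoxb13-high pair. Serpinh1 was the 1 member called with the intensity trend and robust prior (91 genes called in all), with the dimmest 25% (16) or 50% (46) of probe sets removed, which test fewer genes, with array weights (68) and at an adjusted p of 0.1 (81). Leaving out the lowest 50% removed P4ha2. The genes called in all were 4 with quantile normalization repeated, 5 with all probe sets tested, and 0 without the Hoxb13-high pair, with the fibroblast covariate or with the replicate block. The block left 0 members called and did not alter another count of members by over 1.5 times. Members lower at an unadjusted p under 0.05 numbered 2 with each array centred on its median, with repeated quantile normalization, without the Hoxb13-high pair and with the posterior colon covariate, and 1 with the fibroblast covariate. What the shared replicate number stands for is not given. Of 4 hBD-2 arrays, 1 correlated best with the PBS array of its own number. With the replicate block the SE was smaller for every member, such as Lox (0.20, against 0.28) and Serpinh1 (0.081, against 0.094). Whether same-numbered mice shared a cage or a day cannot be read from these values.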
